A study of Mus musculus with 6 samples.

Results

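The imprinted growth control genes followed here were H19, Peg3, Mest, Dlk1, Meg3, Grb10, Plagl1, Ndn, Cdkn1c and Sgce. They were taken by symbol and made up 10 of the 24421 gene symbols of the deposited expression table. RNA had been sequenced from 6 libraries, 3 of mammary tumour (tumours 1 to 3) and 3 of mammary gland (glands 1 to 3). The tumours were labelled FVB/NJ; MMTV-Tg(LINK-A) and the glands FVB/NJ; Tg(LINK-A), and all mice were females aged 5 months. LINK-A is a human long non-coding RNA, carried here as a transgene, and the MMTV promoter, taken from the mouse mammary tumour virus, is active mainly in mammary epithelium. Total RNA was taken from whole frozen tissue. The genotype label changed with the tissue, so transgene and tumour cannot be told apart. The labels do not say whether the 3 libraries of a group came from separate animals, and p-values then measure only the spread between these libraries. Levels are given in FPKM, fragments scaled by transcript length and by the mapped fragments of the library, the unit the deposited values were taken to be in, and they do not separate the maternal from the paternal copy of a gene.

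An imprinted gene is read from one parental chromosome while the copy from the other parent stays silent, a state marked by DNA methylation that is set in the germ line. Imprinted genes lie in clusters that share control regions, and many act on growth before and after birth, with several paternally expressed genes promoting growth and several maternally expressed genes restraining it. In mice many of them are active in fetal tissue, decline together after birth, and remain readable in adult stroma, fat, muscle and some stem cells. Of the 10 genes, H19, Meg3, Grb10 and Cdkn1c are read from the maternal chromosome in most mouse tissues, and Peg3, Mest, Dlk1, Plagl1, Ndn and Sgce from the paternal one.

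Lower levels in the tumours were found for 6 of the growth control genes, none was higher, and 3 did not pass the test. Ndn, Cdkn1c, Mest, Meg3, Sgce and Grb10 fell, with fold changes between -3.16 and -1.07 on the log2(FPKM + 1) scale, while H19, Peg3 and Plagl1 did not pass and Dlk1 was too low for the fit. The fit was limma on log2(FPKM + 1) over the 13364 genes whose mean reached 1 FPKM, with the Benjamini-Hochberg adjustment over all of them and a threshold of 0.05, and 9 of the 10 genes entered it. Over all tested genes 45.1% passed, 21.9% with higher and 23.1% with lower levels in tumours. The median log2 fold change was -1.46 over the 9 tested growth control genes and 0.0083 over all tested genes. For the 6 genes that fell, every tumour value lay below every gland value, a separation seen in 29.0% of all tested genes, and in 58.2% when either direction is counted. Of the maternally expressed genes 3 of 4 fell, and of the paternally expressed ones 3 of the 5 tested. In tissue RNA of this kind, fewer cells of a type and less RNA per cell cannot be told apart.

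**Figure D1:**
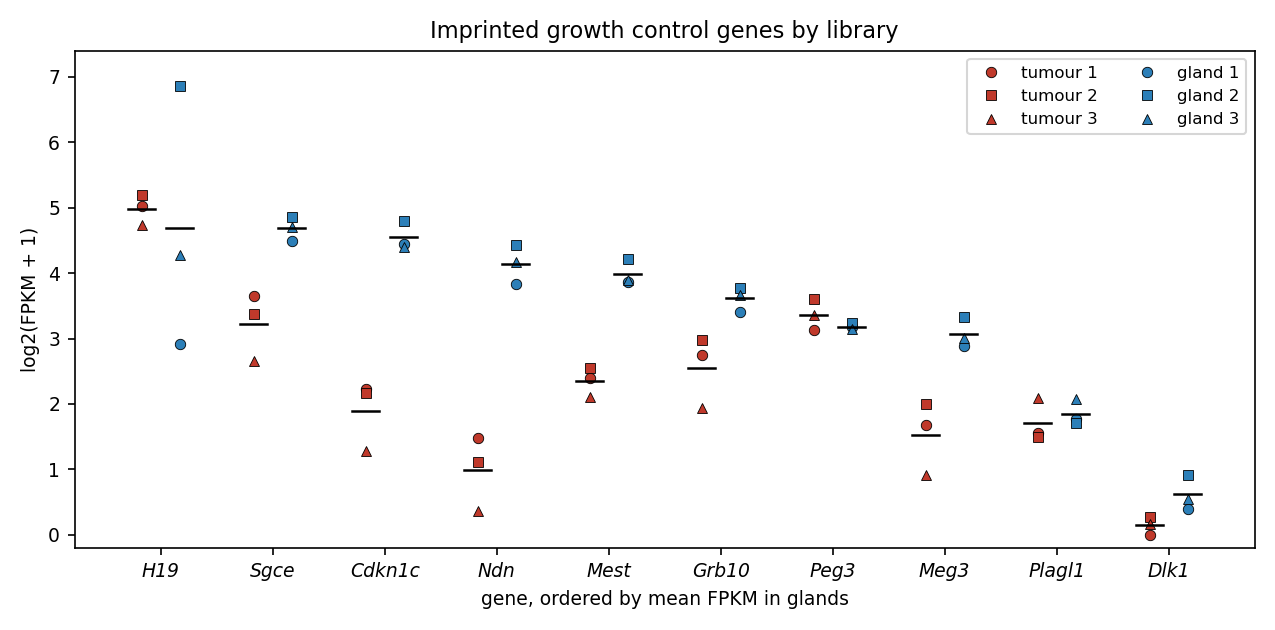
Level of each growth control gene in log2(FPKM + 1) in the 3 tumours (red, left) and the 3 glands (blue, right), with horizontal bars at the group means and genes ordered by their mean FPKM in glands. The 3 tumour points lie below the 3 gland points for Sgce, Cdkn1c, Ndn, Mest, Grb10, Meg3 and Dlk1, and gland 2 stands above all other libraries for H19.

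Cdkn1c encodes p57, an inhibitor of cyclin-dependent kinases that holds cells out of the division cycle. The gene lies at chr7:143458339-143461050 (GRCm38, GENCODE M21, minus strand). Cdkn1c stood at 3.67, 3.47 and 1.44 FPKM in tumours 1 to 3, against 20.8, 26.9 and 20.05 FPKM in glands 1 to 3. The highest tumour was thus far under the lowest gland, and tumour 3 was the lowest of all. Cdkn1c fell by 2.66 on the log2 scale (SE 0.27, adjusted p = 0.000407 in limma). Its mean was 2.86 ± 1.23 FPKM in tumours and 22.6 ± 3.75 FPKM in glands (SD, n = 3 each).

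The genes around Cdkn1c moved in both directions. Phlda2, which restrains growth of the mouse placenta and is also read from the maternal chromosome, lies 40.5 kb away. Phlda2 stood at 10.98, 6.36 and 0.85 FPKM in tumours 1 to 3, while it was listed at 0 in glands 1 and 3 and at 0.22 FPKM in gland 2. It was above every gland in each tumour, with a wide spread among the tumours (log2 fold change 2.35, SE 0.64, adjusted p = 0.0224 in limma), and the call was lost when any one library other than tumour 3 was left out (adjusted p = 0.0511 to 0.0769). The log2 difference between Phlda2 and Cdkn1c within a library was 1.36, 0.72 and -0.40 in tumours 1 to 3, against -4.45, -4.51 and -4.40 in glands 1 to 3. The groups did not overlap, with a difference of 5.01 and a 2-sided exact permutation p of 0.1, the smallest that 3 against 3 libraries allow. That p was fixed in advance and adds no support. Every tumour was already above every gland for Phlda2 and below every gland for Cdkn1c. The Cdkn1c and Kcnq1 domain held 8 other tested genes, of which 3 rose, 1 fell and 4 did not pass. Over all tested genes 21.9% were higher and 23.1% lower, so most genes did not fall there either. Besides Phlda2, the potassium channel gene Kcnq1 (1.46) and the tetraspanin gene Cd81 (0.60) rose, and the oxysterol-binding gene Osbpl5 fell (-1.05). Every tumour lay below every gland for Osbpl5, as in 29% of all tested genes. The same held for Tspan32 (-1.32, adjusted p = 0.058 in limma) and Nap1l4 (-0.23, adjusted p = 0.0909 in limma), which did not pass. Kcnq1ot1, the paternally read RNA that silences this domain, stood between 0.29 and 0.49 FPKM in tumours and between 0.27 and 0.31 FPKM in glands, and was under the filter. It overlaps Kcnq1 on the opposite strand.

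Ndn, which encodes necdin, a MAGE family protein that binds E2F1 and is linked to exit from the cell cycle, fell the furthest of the tested growth control genes. It lies at chr7:62346569-62350262 (plus strand) in the region whose human counterpart is affected in Prader-Willi syndrome. Ndn stood at 1.78, 1.17 and 0.28 FPKM in tumours 1 to 3, against 13.3, 20.6 and 16.99 FPKM in glands 1 to 3. Tumour 3 again held the lowest value and gland 2 the highest. The log2 fold change was -3.16 (SE 0.30, adjusted p = 0.000329 in limma), with means of 1.08 ± 0.75 FPKM in tumours and 16.97 ± 3.63 FPKM in glands (SD, n = 3 each).

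Of the 3 other tested genes of the Ndn and Snrpn domain none passed. Snrpn, which encodes a small ribonucleoprotein of the spliceosome and is paternally expressed like Ndn, stood at 13.5, 13.6 and 13.5 FPKM in tumours 1 to 3, against 7.70, 11.8 and 9.68 FPKM in glands 1 to 3. All 3 tumours were above all 3 glands (log2 fold change 0.45, SE 0.16, adjusted p = 0.0518 in limma), and the adjusted p was 0.022 without gland 2. Ube3a, the ubiquitin ligase gene read from the maternal chromosome in neurons, averaged 11.8 ± 2.14 FPKM in tumours and 11.3 ± 1.505 FPKM in glands (SD, n = 3 each). Under the filter, the paternally expressed Mkrn3, a zinc finger gene, stood between 0.09 and 0.12 FPKM in tumours and between 0.49 and 1.08 FPKM in glands. Peg12 was listed at 0 in tumour 1 and stood at 0.17 and 0.12 FPKM in tumours 2 and 3, against 0.63 to 0.96 FPKM in glands, so both genes had every tumour below every gland. Magel2, the MAGE family gene next to Ndn, was listed at 0 in all 6 libraries.

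Mest encodes a protein of the alpha/beta hydrolase family, is known in mice as a gene of expanding fat tissue, and lies at chr6:30723547-30748465 (plus strand). Mest stood at 4.28, 4.86 and 3.31 FPKM in tumours 1 to 3, against 13.6, 17.6 and 13.8 FPKM in glands 1 to 3. The tumours lay close together and well under the glands. It fell by 1.64 on the log2 scale (SE 0.17, adjusted p = 0.000414 in limma), with means of 4.15 ± 0.78 FPKM in tumours and 15.0 ± 2.27 FPKM in glands (SD, n = 3 each). Copg2, a coat protein gene of vesicle transport on the opposite strand, overlaps the end of Mest by 912 bases. It averaged 15.8 ± 3.81 FPKM in tumours and 14.2 ± 1.25 FPKM in glands (SD, n = 3 each) and did not pass (log2 fold change 0.12, adjusted p = 0.616 in limma). Klhdc10 and Cep41, on the other side of Mest, did not pass either. No source used here says whether counting used the strand, so reads of overlapping genes on opposite strands, such as Mest and Copg2, cannot be told apart.

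Meg3, a maternally read long non-coding RNA that restrains proliferation in several human cell lines, lies 77.7 kb from Dlk1, at chr12:109541001-109571726 (plus strand). Meg3 stood at 2.21, 3.01 and 0.88 FPKM in tumours 1 to 3, against 6.39, 9.10 and 7.004 FPKM in glands 1 to 3. The tumours were all lower, with a gap of more than 3 FPKM between the groups. It fell by 1.54 on the log2 scale (SE 0.29, adjusted p = 0.00546 in limma). Dlk1, a transmembrane ligand of the Delta family that keeps preadipocytes from becoming fat cells, was listed at 0 in tumour 1 and stood at 0.21 and 0.12 FPKM in tumours 2 and 3, against 0.31, 0.87 and 0.46 FPKM in glands 1 to 3. It was the lowest growth control gene in both groups. Its difference in mean log2(FPKM + 1) was -0.47 with a 2-sided exact permutation p of 0.1, the smallest possible, and the groups did not overlap.

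The other genes of the Dlk1 and Meg3 domain that could be tested moved the same way as Meg3. Rian, the next maternally read non-coding RNA downstream and a host of small nucleolar RNAs, stood at 1.41, 2.26 and 1.04 FPKM in tumours 1 to 3, against 3.82, 5.33 and 4.06 FPKM in glands 1 to 3 (log2 fold change -1.09, SE 0.22, adjusted p = 0.00705 in limma). Begain, 384.6 kb upstream of Dlk1, fell by 1.69 (SE 0.17, adjusted p = 0.000406 in limma). It stood between 0.35 and 0.57 FPKM in tumours, under the 1 FPKM limit, and between 3.36 and 4.35 FPKM in glands. Both genes separated the tumours from the glands in every library. Mirg, Rtl1 and Dio3 had means under 1 FPKM and were not tested. Mirg overlapped between the groups, at 0.45, 0.69 and 0.12 FPKM in tumours 1 to 3 against 0.38, 0.91 and 0.97 FPKM in glands 1 to 3. Dio3 overlapped too and leaned the other way, at 0, 0.32 and 0.50 FPKM against 0, 0 and 0.07 FPKM. Rtl1 was listed at 0 in the tumours and stood between 0.03 and 0.07 FPKM in glands.

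Grb10 encodes an adaptor protein that binds the insulin and IGF1 receptors and damps their signalling, and lies at chr11:11930508-12038683 (minus strand). Grb10 stood at 5.71, 6.91 and 2.82 FPKM in tumours 1 to 3, against 9.63, 12.7 and 11.8 FPKM in glands 1 to 3. The groups did not overlap, although tumour 2 and gland 1 were less than 3 FPKM apart. It fell by 1.07 on the log2 scale (SE 0.28, adjusted p = 0.019 in limma), and this call was lost without gland 2 (adjusted p = 0.0622) or without gland 3 (adjusted p = 0.0643). Cobl, an actin nucleator gene 197.9 kb away, went the other way, at 13.1, 16.2 and 14.6 FPKM in tumours 1 to 3, against 2.47, 3.34 and 2.42 FPKM in glands 1 to 3 (log2 fold change 2.06, SE 0.15, adjusted p = 0.000114 in limma).

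Sgce and Peg10 are read from opposite strands of the paternal chromosome 6, and their annotated starts are about 0.1 kb apart. Sgce encodes epsilon-sarcoglycan, a membrane protein of the dystrophin-associated complex, and lies at chr6:4674350-4747207 (minus strand). Sgce stood at 11.51, 9.42 and 5.32 FPKM in tumours 1 to 3, against 21.5, 28.1 and 25.2 FPKM in glands 1 to 3. All 3 tumours lay below all 3 glands, and Sgce fell by 1.46 on the log2 scale (SE 0.26, adjusted p = 0.00392 in limma). Peg10, a gene derived from a retrotransposon and needed for the mouse placenta, stood at 12.3, 16.98 and 29.9 FPKM in tumours 1 to 3, against 0.98, 0.81 and 0.79 FPKM in glands 1 to 3. It was many times higher in every tumour than in any gland and rose by 3.39 (SE 0.30, adjusted p = 0.000219 in limma).

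Within the tumours the neighbours Sgce and Peg10 also ran in opposite orders. Tumour 3, lowest for Sgce, was highest for Peg10. The log2 difference between Peg10 and Sgce within a library was 0.09, 0.79 and 2.29 in tumours 1 to 3, against -3.50, -4.01 and -3.87 in glands 1 to 3. The groups differed by 4.85, with a 2-sided exact permutation p of 0.1, the smallest possible. Here too that p was fixed in advance, since each gene already separated the groups, in opposite directions. The other tested genes of the domain, Casd1, Ppp1r9a and Tfpi2, did not pass, although Casd1 was called higher without tumour 1 (adjusted p = 0.0174 in limma) and Tfpi2 without tumour 3 (adjusted p = 0.0466 in limma).

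**Figure D2:**
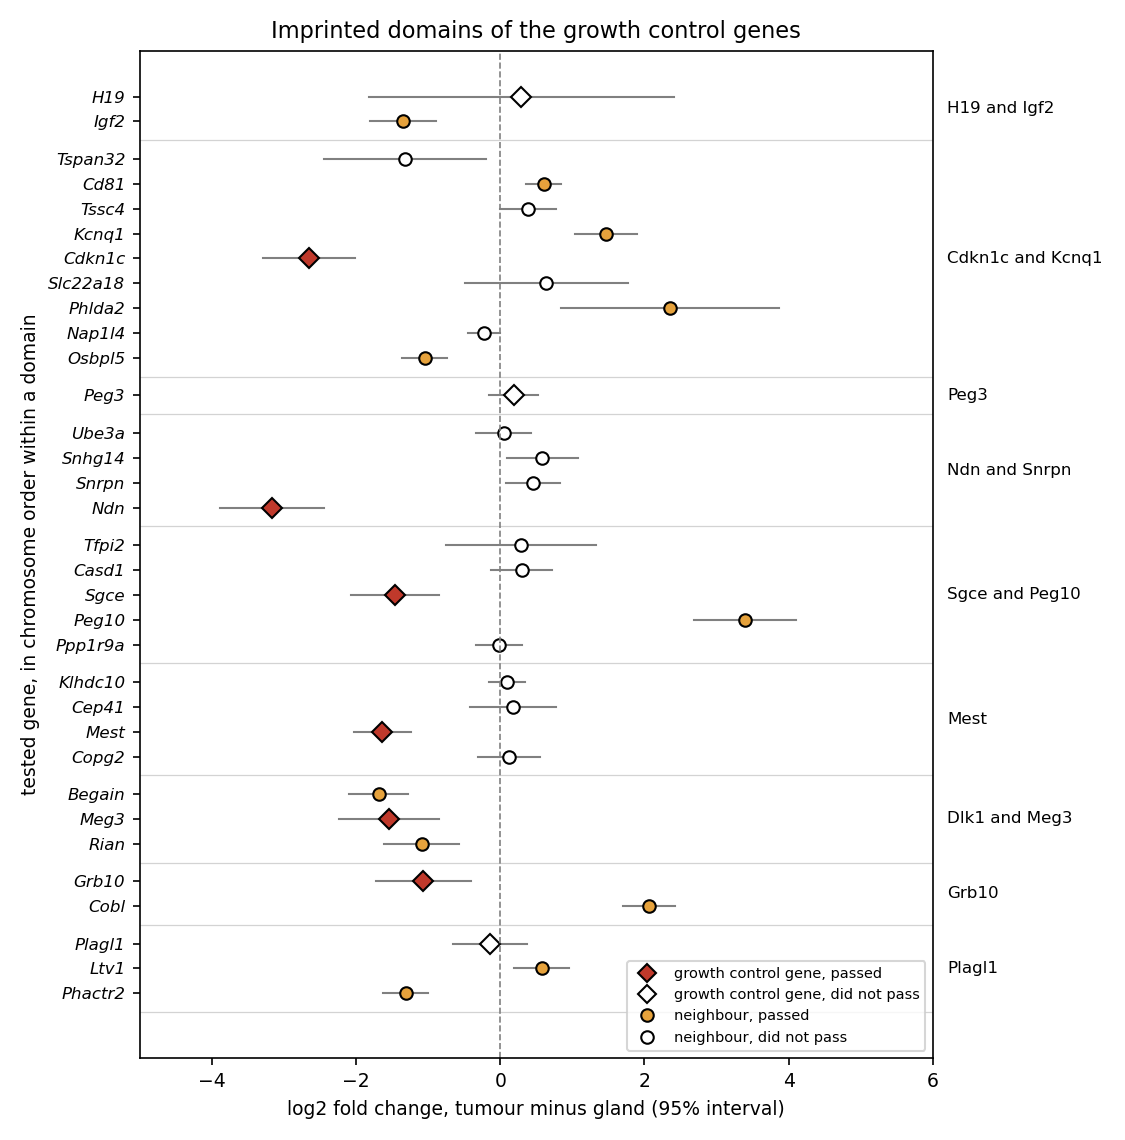
Log2 fold change, tumour minus gland, with its 95% interval for each tested gene of the 9 imprinted domains that hold the growth control genes, in chromosome order within a domain. Diamonds are the growth control genes and circles their neighbours, filled where the adjusted p was under 0.05; Cdkn1c and Phlda2, Sgce and Peg10, and Grb10 and Cobl lie on opposite sides of 0, and Meg3, Rian and Begain on the same side.

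Across the 9 domains 41 neighbours were listed and 24 of them tested. Of these, 6 rose in the tumours, 5 fell and 13 did not pass, shares near those over all tested genes (21.9% higher and 23.1% lower). Casd1, Klhdc10, Cep41, Begain, Cobl, Ltv1 and Phactr2, all tested, were not on the lists of imprinted genes used here. Of the 17 neighbours that were not tested, 6 had every tumour below every gland (Zim1, Mkrn3, Peg12, Asb4, Klf14 and Rtl1) and none had every tumour above. Over all tested genes 29.0% had every tumour below, and the share among genes under 1 FPKM was not counted. These values lie near 0, such as Rtl1, at 0 in the tumours and 0.03 to 0.07 FPKM in glands. Near Plagl1, the neighbours were split as well. The ribosome assembly gene Ltv1 rose by 0.57 (SE 0.16, adjusted p = 0.0263 in limma) and Phactr2, a phosphatase regulator gene, fell by 1.31 (SE 0.13, adjusted p = 0.00039 in limma). The call of Ltv1 was lost without any one library other than tumour 3 (adjusted p = 0.0572 to 0.0891 in limma without a gland).

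H19, a maternally read long non-coding RNA that restrains growth in mouse embryos and is abundant in developing muscle, was the highest of the growth control genes in the tumours, and in the glands by a mean that gland 2 set. It lies at chr7:142575529-142578143 (minus strand). H19 stood at 31.4, 35.6 and 25.5 FPKM in tumours 1 to 3, against 6.55, 116 and 18.4 FPKM in glands 1 to 3. The tumours lay close together, while the glands spread both below and above them. H19 did not pass (log2 fold change 0.29, 95% interval -1.83 to 2.41, SE 0.89, adjusted p = 0.812 in limma), and a single gland set its direction. Without gland 2 the log2 fold change was 1.38 and H19 was called higher in the tumours (adjusted p = 0.0404 in limma), and without gland 1 it was -0.59.

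Genes of skeletal muscle followed the same order over the glands as H19. The 8 genes of the list, among them Acta1, Ckm, Tnnt3 and the fast myosin heavy chains, summed to 5.86, 8.05 and 27.2 FPKM in tumours 1 to 3, against 13.7, 11759.7 and 1055 FPKM in glands 1 to 3. Gland 2 held the most and gland 3 stood between it and gland 1. Acta1, the actin of skeletal muscle fibres, stood at 1.65, 1.70 and 10.2 FPKM in tumours 1 to 3, against 3.63, 3831 and 346 FPKM in glands 1 to 3. All 8 muscle genes were highest in gland 2, and none passed the test. The part of muscle RNA in the H19 values was not tested. H19 made up 44.7, 45.9 and 48.9% of the summed FPKM of the 10 growth control genes in tumours 1 to 3, against 6.40, 47.7 and 14.8% in glands 1 to 3.

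**Figure D3:**
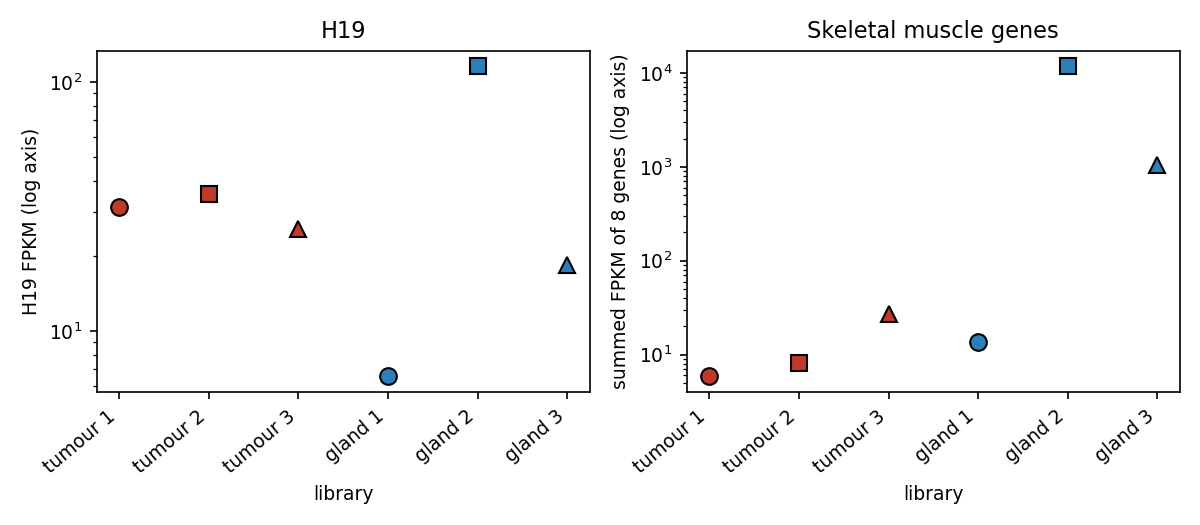
H19 in FPKM (left panel) and the summed FPKM of 8 skeletal muscle genes (right panel), both on log axes, in each of the 3 tumours and 3 glands. Gland 2 is highest and gland 1 lowest among the glands in both panels, and the 3 tumours lie between 25.5 and 35.6 FPKM for H19 and at or below 27.2 FPKM for the muscle genes.

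Igf2, the paternally expressed fetal growth factor gene that shares enhancers with H19, lies 72.6 kb from it and was low in both groups. Igf2 stood at 0.29, 0.43 and 0.23 FPKM in tumours 1 to 3, against 1.90, 2.91 and 2.27 FPKM in glands 1 to 3. The tumours were all lower (log2 fold change -1.34, SE 0.19, adjusted p = 0.00167 in limma). Igf2r, which encodes the receptor that clears IGF2 from the cell surface, was higher in the tumours, at 20.3, 28.1 and 38.7 FPKM in tumours 1 to 3, against 12.2, 10.7 and 11.4 FPKM in glands 1 to 3 (log2 fold change 1.23, SE 0.22, adjusted p = 0.00419 in limma). Airn, the RNA that silences the paternal Igf2r, overlaps it on the opposite strand and did not pass.

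H19 and Mest each hold a microRNA within the gene body, and their mature sequences are shown because they are cut from the transcripts of these genes. The microRNAs themselves were not measured here. They are written 5′ to 3′ from RefSeq (GRCm38.p6), with the seed, bases 2 to 8, in capitals. No 2 of the 4 share a seed. The H19 pair lies between chr7:142577078-142577099 and chr7:142577112-142577133 on the minus strand, and the Mest pair between chr6:30741314-30741336 and chr6:30741354-30741375 on the plus strand.
mmu-miR-675-5p (H19): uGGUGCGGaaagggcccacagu
mmu-miR-675-3p (H19): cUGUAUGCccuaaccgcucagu
mmu-miR-335-5p (Mest): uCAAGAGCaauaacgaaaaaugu
mmu-miR-335-3p (Mest): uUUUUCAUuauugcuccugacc

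Neither of the zinc finger genes Peg3 and Plagl1 passed the test. Peg3, which lies at chr7:6703892-6730431 (minus strand) and encodes a DNA-binding protein tied to the p53 and TNF pathways, stood at 7.79, 11.1 and 9.28 FPKM in tumours 1 to 3, against 8.01, 8.39 and 7.85 FPKM in glands 1 to 3. The gland values fell within the range of the tumours, and the log2 fold change was 0.18 (95% interval -0.16 to 0.53, adjusted p = 0.338 in limma). The interval excludes a change of the size seen in any of the 6 genes that fell. Plagl1, also called Zac1, lies at chr10:13060504-13131694 (plus strand) and encodes a factor that induces cell cycle arrest and, in mice, regulates other imprinted genes. Plagl1 stood at 1.94, 1.81 and 3.26 FPKM in tumours 1 to 3, against 2.42, 2.27 and 3.22 FPKM in glands 1 to 3. Tumour 3 and gland 3 were both high and the groups overlapped (log2 fold change -0.14, 95% interval -0.65 to 0.37, adjusted p = 0.625 in limma). Its direction turned under quantile normalization (0.30), where the median of all tested genes moved to 0.12.

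Promoter windows are shown for 3 genes that fell, Mest, Meg3 and Ndn, and for Peg3, which did not pass, since these differ in the words they hold. Each runs from 250 bases before to 50 after a RefSeq start on GRCm38.p6. The windows were searched on both strands for TGCCGC, the word bound by the imprint-keeping factor ZFP57 when methylated, for GGGGCCCC, a word bound by PLAGL1, and for GCCATNTT, a YY1 word, and matches are in capitals. The table held windows for 7 of the 10 genes, and H19, Cdkn1c and Sgce had no entry. TGCCGC was in 11.6% of all 32851 windows of this length, GGGGCCCC in 1.08% and GCCATNTT in 6.05%. The Mest window printed (chr6:30737800-30738099, plus strand) held TGCCGC in 2 places and the Meg3 window printed (chr12:109540746-109541045, plus strand) in 1, both written here as the reverse complement. The Peg3 window (chr7:6730370-6730669, minus strand) held GGGGCCCC in 1 place, and the Ndn window (chr7:62348027-62348326, plus strand) held none of the words.
Mest: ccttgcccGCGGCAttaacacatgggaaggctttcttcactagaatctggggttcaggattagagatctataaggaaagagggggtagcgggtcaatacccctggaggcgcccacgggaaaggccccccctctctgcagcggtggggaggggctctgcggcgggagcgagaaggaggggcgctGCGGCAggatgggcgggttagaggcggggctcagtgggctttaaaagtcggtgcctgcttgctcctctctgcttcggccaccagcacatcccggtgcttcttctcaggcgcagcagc
Meg3: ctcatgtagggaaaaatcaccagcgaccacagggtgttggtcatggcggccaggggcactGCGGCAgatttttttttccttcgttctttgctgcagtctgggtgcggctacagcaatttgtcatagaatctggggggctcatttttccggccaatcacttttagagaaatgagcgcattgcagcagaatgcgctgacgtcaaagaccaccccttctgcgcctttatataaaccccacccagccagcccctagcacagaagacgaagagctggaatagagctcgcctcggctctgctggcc
Ndn: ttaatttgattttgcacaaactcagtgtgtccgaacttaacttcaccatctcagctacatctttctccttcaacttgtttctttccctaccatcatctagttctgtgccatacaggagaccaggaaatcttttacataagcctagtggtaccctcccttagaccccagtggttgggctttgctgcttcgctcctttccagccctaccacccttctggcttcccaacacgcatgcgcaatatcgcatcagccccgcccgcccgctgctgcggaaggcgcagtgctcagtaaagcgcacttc
Peg3: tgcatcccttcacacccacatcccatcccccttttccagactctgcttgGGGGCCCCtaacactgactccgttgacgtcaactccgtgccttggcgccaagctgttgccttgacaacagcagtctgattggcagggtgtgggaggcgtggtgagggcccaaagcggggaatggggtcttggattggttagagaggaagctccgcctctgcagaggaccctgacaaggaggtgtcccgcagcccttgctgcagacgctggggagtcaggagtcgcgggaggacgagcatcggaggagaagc

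These windows held 17 (Mest), 13 (Meg3), 11 (Ndn) and 13 (Peg3) CG pairs, where the median of all windows was 7. At least as many were held by 31.4%, 37.9%, 41.4% and 37.9% of all windows, in the same order, so such numbers are common. The Dlk1 window and the Grb10 window at chr11:12027922-12028221 held 9 each, a number reached by 45.8% of all windows. One of the 2 Grb10 windows, at chr11:12037371-12037670, held 45, a number reached by 1.93% of all windows, together with 1 TGCCGC, and the Plagl1 window held 26 and 1 TGCCGC. GCCATNTT was in none of the windows of the growth control genes. A further Mest window (chr6:30733256-30733555) held 8 CG pairs and a further Meg3 window (chr12:109545148-109545447) held 1, and neither held any of the words. A match is a description of the letters, and no methylation or binding was measured here.

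Levels can be ordered within each tissue, since FPKM are per length. In tumours the order by mean was H19, Peg3, Sgce, Grb10, Mest, Cdkn1c, Plagl1, Meg3, Ndn and Dlk1. H19, at 30.8 ± 5.05 FPKM (SD, n = 3), stood clear of Peg3, at 9.41 ± 1.68 FPKM, and Dlk1 stood clear of Ndn, but the ranges of all other neighbours in that order overlapped. In glands the order by mean was H19, Sgce, Cdkn1c, Ndn, Mest, Grb10, Peg3, Meg3, Plagl1 and Dlk1, but the first place of H19 rested on gland 2, and over glands 1 and 3 alone its mean was 12.5 FPKM, in place 5. There the ranges separated Grb10 (11.4 ± 1.57 FPKM) from Mest (15.0 ± 2.27 FPKM), Peg3 (8.08 ± 0.28 FPKM) from Grb10, Plagl1 (2.64 ± 0.51 FPKM) from Meg3 and Dlk1 from Plagl1. Ndn was thus ninth of 10 in tumours and 4th in glands, and Peg3 second in tumours and 7th in glands. Without H19, the growth control genes summed to 38.9, 42.0 and 26.7 FPKM in tumours 1 to 3, against 95.9, 126.5 and 106 FPKM in glands 1 to 3. The groups did not overlap. That was largely set in advance, since the sum includes the genes that fell, for which every tumour already lay below every gland.

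The 6 genes that fell were all lowest in tumour 3 and all highest in gland 2. Markers of several other cell types were lowest in tumour 3 as well, but were not regularly highest in gland 2. The shares of all tested genes with either trait were not counted. The mean log2(FPKM + 1) of the 6 genes was 2.36, 2.37 and 1.54 in tumours 1 to 3, against 3.82, 4.24 and 3.97 in glands 1 to 3. These 6 genes were picked because they fell, so the gap between the groups was set by that choice. The marker lists were not filtered by the test, so their gaps are not of the same kind. Of the fibroblast stroma list, which includes Col1a1, Pdgfra, Lum and Dpt, 16 of 16 genes were lower in the tumours (median log2 fold change -1.94) and 16 of 16 were lowest in tumour 3 among the tumours. That list summed to between 148 and 481 FPKM in tumours and between 1744 and 1819.7 FPKM in glands, and none of its genes was at 0 in any library. Of the adipocyte list 11 of 12 genes were lower (median -5.75, summed level 117 to 441 FPKM in tumours and 12320.4 to 14213 FPKM in glands), with Retn and Pparg listed at 0 in tumour 3. Of the endothelium list 9 of 9 were lower (median -2.44, 25.3 to 53.5 FPKM in tumours and 249 to 292 FPKM in glands). Gland 2 was the highest gland for 8 of 16 fibroblast stroma genes, 3 of 12 adipocyte genes and 2 of 9 endothelium genes. The part of these cell types in the lower levels of the growth control genes was not tested.

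The luminal list moved the other way, and the basal and lymphocyte lists were lowest in tumour 3 too. Of the luminal epithelium list, which includes the keratin genes Krt8 and Krt18 and Epcam, 10 of 11 genes were higher in the tumours and 1 did not pass, with summed levels of 3441 to 3750.3 FPKM in tumours and 1284 to 1362.5 FPKM in glands, so both tissues held the markers of mammary epithelium. Of the basal epithelium list 5 of 9 were lower and 4 did not pass (median -2.95, 116 to 327 FPKM in tumours and 626 to 674 FPKM in glands). Those that fell were the contractile genes Acta2, Myh11, Cnn1 and Mylk and the oxytocin receptor gene Oxtr, while the keratin genes Krt5, Krt14 and Krt17 did not pass. Of the lymphocyte list 4 of 9 were lower and 5 did not pass (median -1.93), and glands 1 and 3 stood above the rest (7.15 to 43.1 FPKM in tumours, and 196, 51.2 and 193 FPKM in glands 1 to 3), with Cd3d and Ms4a1 among the genes listed at 0 in tumour 3. Tumour 3 was the lowest tumour for 9 of 9 genes in each of these lists, the basal and the lymphocyte one. Of the Schwann cell list 3 of 7 tested genes were higher and 4 lower (149 to 257 FPKM in tumours and 160.1 to 203 FPKM in glands). Gland 2 was the highest gland for 3 of 9 basal, 0 of 9 lymphocyte, 2 of 11 luminal and 5 of 7 Schwann cell genes.

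**Figure D4:**
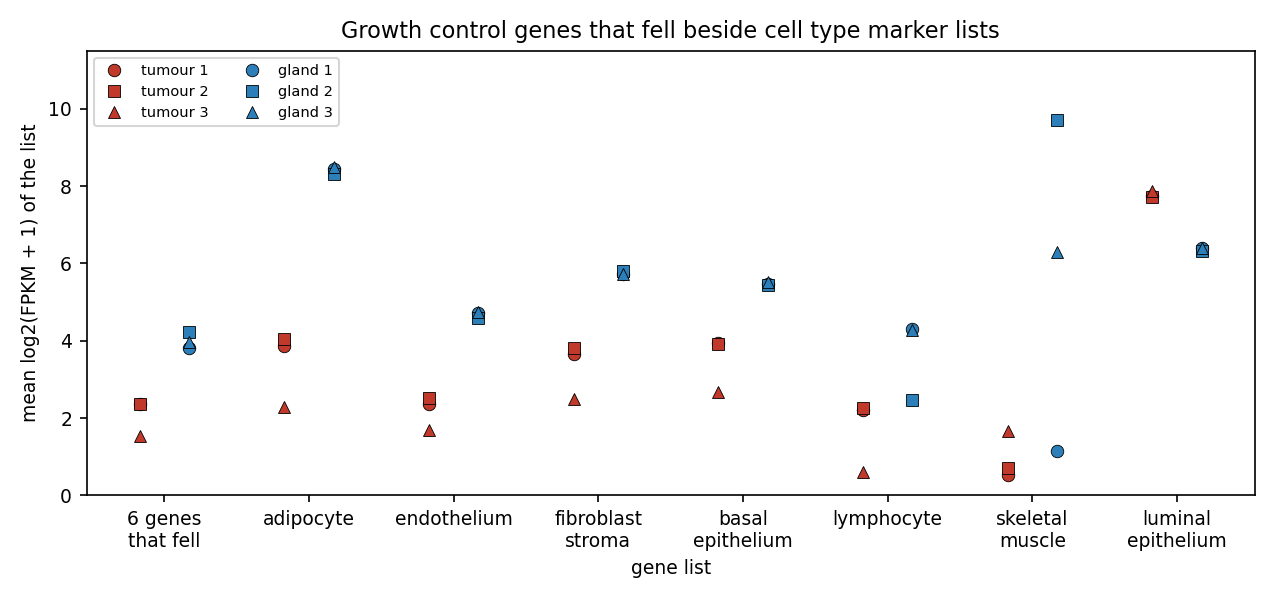
Mean log2(FPKM + 1) of the 6 growth control genes that fell and of 7 cell type marker lists in each tumour (red, left) and each gland (blue, right). Tumour 3 is the lowest library for the 6 genes (1.54) and for the adipocyte, endothelium, fibroblast stroma, basal epithelium and lymphocyte lists, and the luminal epithelium list is higher in the tumours. The 6 genes were picked because they fell, and the lists were not filtered by the test.

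For each tested growth control gene, the 2 other tested genes with the most similar profile were found by the root mean square difference of log2(FPKM + 1) around the gene mean over the 6 libraries. The nearest to Mest were Frem1 (0.065) and Gas7 (0.071), to Meg3 Pamr1 (0.10) and Col14a1 (0.12), and to Grb10 Loxl2 (0.077) and Trim29 (0.11). For Ndn they were Gstm2 (0.11) and Adamts5 (0.14), for Cdkn1c Ecm2 (0.099) and Jam2 (0.10), and for Sgce Ppic (0.060) and Klf4 (0.10). Peg3 was nearest to Tagap1 (0.047) and Trpm4 (0.057), and Plagl1 to 5530601H04Rik (0.052) and Hars2 (0.060). H19 had the loosest match, with Asb16 (0.40) and Tmem52 (0.45). Their peak in gland 2, at 7.09 and 9.96 FPKM, follows from their choice by likeness to H19.

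Imprinted genes outside the 10 were listed to set the growth control genes beside them. Of 61 others, 60 were in the table and 37 were tested, of which 8 were higher in the tumours, 12 were lower and 17 did not pass (median log2 fold change 0.05), where 21.9% of all tested genes were higher and 23.1% lower. Of the paternally expressed ones 2 of 15 rose and 8 fell, and of the maternally expressed ones 6 of 22 rose and 4 fell. Among those that fell were Dcn, the collagen-binding proteoglycan decorin, Slc22a3, an organic cation transporter, and Nnat, neuronatin. Dcn stood at 47.9, 44.5 and 7.61 FPKM in tumours 1 to 3, against 504, 631 and 589 FPKM in glands 1 to 3 (log2 fold change -4.42, SE 0.63, adjusted p = 0.00167 in limma), and like the 6 growth control genes was lowest in tumour 3 and highest in gland 2. Slc22a3 fell by 2.77 (SE 0.16, adjusted p = 4.9e-05 in limma) and Nnat by 2.23 (SE 0.42, adjusted p = 0.00536 in limma). Besides Peg10, Phlda2, Igf2r, Kcnq1 and Cd81, the genes that rose included Gatm, the first enzyme of creatine synthesis (0.86), H13, a signal peptide peptidase gene (0.67), and Sfmbt2, a Polycomb group gene (0.58). The call of Sfmbt2 was lost without any one library other than gland 3 (adjusted p = 0.0551 to 0.105 in limma). Dcn, Slc22a3 and Gatm are known to be imprinted in mouse placenta rather than in most adult tissues.

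Of 13 tested imprint maintenance genes, factors that keep or erase the imprint, 4 were higher, none was lower and 9 did not pass, where 45.1% of all tested genes passed. With no filter on low values 4 of 18 were higher and 4 lower, and Zfp57, Dnmt3l, Ctcfl and Tet1, all under the filter, had every tumour below every gland. Gland 2 was the lowest gland for 13 of the 13 tested genes and tumour 1 the lowest tumour for 11 of them. The shares of all tested genes with either trait were not counted. Gland 2 was also the lowest gland for 9 of 9 lymphocyte and 8 of 11 luminal genes, but for 1 of 16 fibroblast stroma and 0 of 8 skeletal muscle genes. Uhrf1, which brings the maintenance methyltransferase to newly copied DNA, stood at 33.5, 33.9 and 32.3 FPKM in tumours 1 to 3, against 13.3, 9.50 and 12.6 FPKM in glands 1 to 3 (log2 fold change 1.43, SE 0.14, adjusted p = 0.000329 in limma). Its tumours lay close together and all above the glands. Dnmt1, that methyltransferase, rose by 0.68 (SE 0.21, adjusted p = 0.0352), Trim28, the co-repressor recruited by ZFP57, by 0.42 (SE 0.11, adjusted p = 0.0186), and Yy1 by 0.42 (SE 0.11, adjusted p = 0.0186), all in limma. In limma without 1 library, the call of Dnmt1 was lost without tumour 2, tumour 3, gland 2 or gland 3 (adjusted p = 0.0624 to 0.108), that of Trim28 without tumour 2, gland 2 or gland 3 (adjusted p = 0.0572 to 0.0732) and that of Yy1 without any one gland (adjusted p = 0.0523 to 0.07). Under a common sum per library Uhrf1 was the only one of the 4 to pass. Zfp57 itself was listed at 0 in tumours 1 and 3 and stood at 0.36 FPKM in tumour 2, against 1.13, 0.89 and 0.82 FPKM in glands 1 to 3, and was under the filter.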

How the data were processed

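RNA-seq values for 3 tumours and 3 glands were read from 1 table. Its header names no unit, and its deposited values were read as FPKM, that is, scaled by the authors by length and library: they were fractional, at least 0, and had library sums of about 486100 to 583000. HISAT2, StringTie and mm10 are named per the submitters' processing notes, without versions or roles. The sources used here give neither read counts nor strandedness, so absolute depth and counting error are unknown. Of 24421 symbols, 6247 were at 0 in all libraries.

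Values as deposited were put on a log2 scale with a pseudocount of 1. Genes whose mean reached 1 FPKM (13364) were fitted with limma 3.58.1 in R 4.3.3 (moderated test with trend, 2-sided, no block), and p-values were adjusted by Benjamini-Hochberg over all of them at 0.05. A fold change on this scale understates the change of low genes. Dlk1, under the filter, was tested by exact permutation over 20 arrangements. The fit was also run on simulated data with far fewer changed genes than passed here. That run does not show how the fit behaves with as many changed genes as here.

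The genes and lists were chosen with earlier results of these data known. All 10 genes are named. Of the other lists, up to 5 passing genes per direction with the smallest p and up to 3 not passing with the highest mean are named. Neighbours in the same domains are named too, and not all of them were on the lists of imprinted genes. Some neighbours were added after their values were seen. Positions come from GENCODE M21 (GRCm38, also called mm10), where 95.5% of symbols matched exactly 1 gene, and sequences from RefSeq GRCm38.p6. The alternatives were a pseudocount of 0.1, no filter, a mean reaching 5 FPKM, scaling by quantiles, by the median of ratios or to a common sum, the replicate block, libraries left out and tumours 1 and 2 averaged. Leaving out glands 2 and 3 together was chosen after seeing the data.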

Additional observations from a re-analysis of the deposited data

How the results depend on the processing

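The count of growth control genes that passed was 6 in the fit reported and stood at 4 to 6 under the other settings, with one exception. That was 3 without glands 2 and 3, where H19 passed as higher and Mest and Ndn as lower, and 1 gland was left. With 1 gland left, Meg3, Sgce and Grb10 lost their calls in both such fits and Cdkn1c in the one without glands 2 and 3. In these fits the spread comes from the tumours alone, and the direction of H19 is fixed by which gland is kept. Leaving out 1 library at a time gave 5 to 6 growth control genes, 4307 to 6371 genes in all, 17 to 26 other imprinted genes and 1 to 5 maintenance genes. The set of growth control genes was not always the same. Without gland 2 it was again 6, but 1 was higher and 5 lower, as H19 entered as higher and Grb10 lost its call. Without glands 1 and 3, genes passing in all numbered 2052, other imprinted genes 7 and maintenance genes 1, and without glands 2 and 3 these were 1640, 7 and 1. A mean reaching 5 FPKM left 12 other imprinted genes, with fewer genes tested. Maintenance genes numbered 8 with no filter (4 higher and 4 lower), where genes under 1 FPKM joined, and 1 under a common sum. The cause of the other changes was not tested.

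The labels state no pairing of tumours with glands. Deviations from the group means showed no positive correlation between same-numbered libraries (-0.054, -0.118 and -0.124). With 3 libraries per group this cannot show whether same-numbered libraries came from the same animal. With the replicate block 4728 genes, 6 growth control genes, 18 other imprinted genes and 1 maintenance gene passed.

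Directions turned for H19 (-1.88 without glands 1 and 3, and -0.59 to 1.38 with 1 library left out), for Plagl1 (0.30 under quantile normalization, 0.0025 without glands 1 and 3) and, among neighbours that did not pass, for Copg2 (-0.044 to 0.29 with 1 library left out), Cep41 (-0.040 without glands 2 and 3) and Airn (-0.025 without glands 2 and 3). Ppp1r9a turned under quantile normalization (0.33), without glands 1 and 3 (0.050) and with tumour 1 or gland 1 left out (-0.087 to 0.036 over single libraries), Tfpi2 without glands 1 and 3 (-0.14) and without tumour 1 (-0.025 to 0.78), and Ube3a under a common sum (-0.012) and without tumour 3 or gland 1 (-0.079 to 0.15). Of 798 values for 51 genes under the alternatives, 686 kept direction and call, 76 lost the call, 20 gained it and 16 turned direction. The difference of Dlk1 ranged from -0.32 to -0.58 with 1 library left out. The depth of the libraries is unknown, so values near 0, such as those of Dlk1, Phlda2 in glands and Igf2 in tumours, carry no counting interval.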
